A study of Homo sapiens with 3 samples.

Results

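Axon guidance genes encode 4 ligand families, the semaphorins, ephrins, Slits and netrins, together with their receptors, and 45 of the 13936 genes in the deposited table fall in these families by their gene symbol. The members were taken as every row named Sema3 to Sema7, plexin A to D, neuropilin, Eph receptor other than Epha2, ephrin, Slit, Robo, netrin or Unc5. One of them, Unc50, matches only by its letters and is not a netrin receptor; it is counted but described last. Members were chosen by name, with earlier results of these data known. Only genes in the deposited table could enter, and the smallest total there was 15 reads.

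AB12 cells come from a malignant mesothelioma of the mouse. Those labelled shNF2 gave 2 libraries, named library 20 and library 21 after the numbers in their titles. These were set against 1 library labelled shSC, taken as the control hairpin. The column names also mark the shNF2 libraries as KD and the shSC library as WT. Merlin, the product of NF2, is a tumour suppressor at the cell membrane that feeds into Hippo signalling. All 3 libraries share the same line, growth in RPMI with 10% serum and polyA selection. The meaning of 20 and 21, the number of cultures and whether the cells are clones are not given in the labels, so a p-value here reflects only how far these libraries vary, which may be technical.

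Guidance cues were first known for steering growing axons, and the same families act outside the nervous system on cell movement, adhesion and vessel growth. Secreted semaphorins usually bind a neuropilin, which has no signalling domain of its own, and signal through a plexin beside it, whereas membrane-bound semaphorins bind plexins directly. Plexins act on small GTPases and on the actin skeleton. Ephrins are tethered to the membrane and signal to Eph receptor kinases on a neighbouring cell, Slits bind Robo receptors, and netrins bind Dcc and Unc5 receptors.

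Reads assigned to genes numbered 25837151 in library 20, 26829163 in library 21 and 29532600 in shSC. Nf2 had 486 and 458 scaled counts in libraries 20 and 21, against 1539 in shSC. Scaled counts are whole reads divided by 1 factor per library; they are not per length, so levels are compared here within a gene and not between genes. Of 12 mesothelial markers, 5 (Msln, Krt7, Krt8, Krt18 and Krt19) had rows and were analysed here. The mesothelin gene Msln had 9722 and 8977 scaled counts in libraries 20 and 21, against 7397 in shSC. The keratin gene Krt7 rose, with 290 and 183 scaled counts, against 49.7 in shSC (log2 fold change 2.19; limma adjusted p = 0.0119), a call lost under quantile normalization (adjusted p = 0.523) and without a variance trend (0.188). Msln, Krt8, Krt18 and Krt19 did not pass, with log2 fold changes of 0.34, -0.37, -0.36 and -0.86. Among markers of other cell types, 2 of 10 leukocyte and 0 of 8 endothelial markers had rows. Rows were also present for 3 of 9 fibroblast and mural markers and 4 of 9 neural and glial markers. Their sums were at most 476 scaled counts per list and library, which does not show that such cells were absent. The leukocyte marker Lyz2, which encodes lysozyme, had 260 and 108 scaled counts in libraries 20 and 21, against 56.5 in shSC (limma adjusted p = 0.191), and Cd68 had 105 and 87.5, against 88.6. The smooth muscle actin gene Acta2 had 1.05 scaled counts in library 20 and 69.0 in library 21, against 0.974 in shSC; Pdgfra and Col3a1 had at most 14.6 in any library. The part of these markers in the values of the guidance genes was not tested.

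Among guidance genes, 1 rose and 1 fell in shNF2 cells. The secreted ligand gene Sema3a was higher in both shNF2 libraries, and the membrane-bound ligand gene Sema6d was lower in both. In bulk libraries fewer cells that express a gene and less RNA per cell cannot be told apart. Of the 45 members, 43 had a mean of at least 10 scaled counts and were tested with limma, with Benjamini-Hochberg adjustment over all 12813 genes tested and a threshold of 0.05. Over all genes tested, 0.414% passed and were higher and 0.429% passed and were lower. At an unadjusted p under 0.05, 3 members were higher and 11 lower, where 4.36% and 4.91% of all genes were. Unc50 is 1 of the 11. The median log2 fold change of the 43 members was -0.19, and that of all genes tested was -0.0043. Both calls also passed edgeR and DESeq2 and were lost under quantile normalization, with adjusted p = 0.523 for Sema3a and 0.496 for Sema6d, and without a variance trend in limma, with adjusted p = 0.196 and 0.0771.

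**Figure D1:**
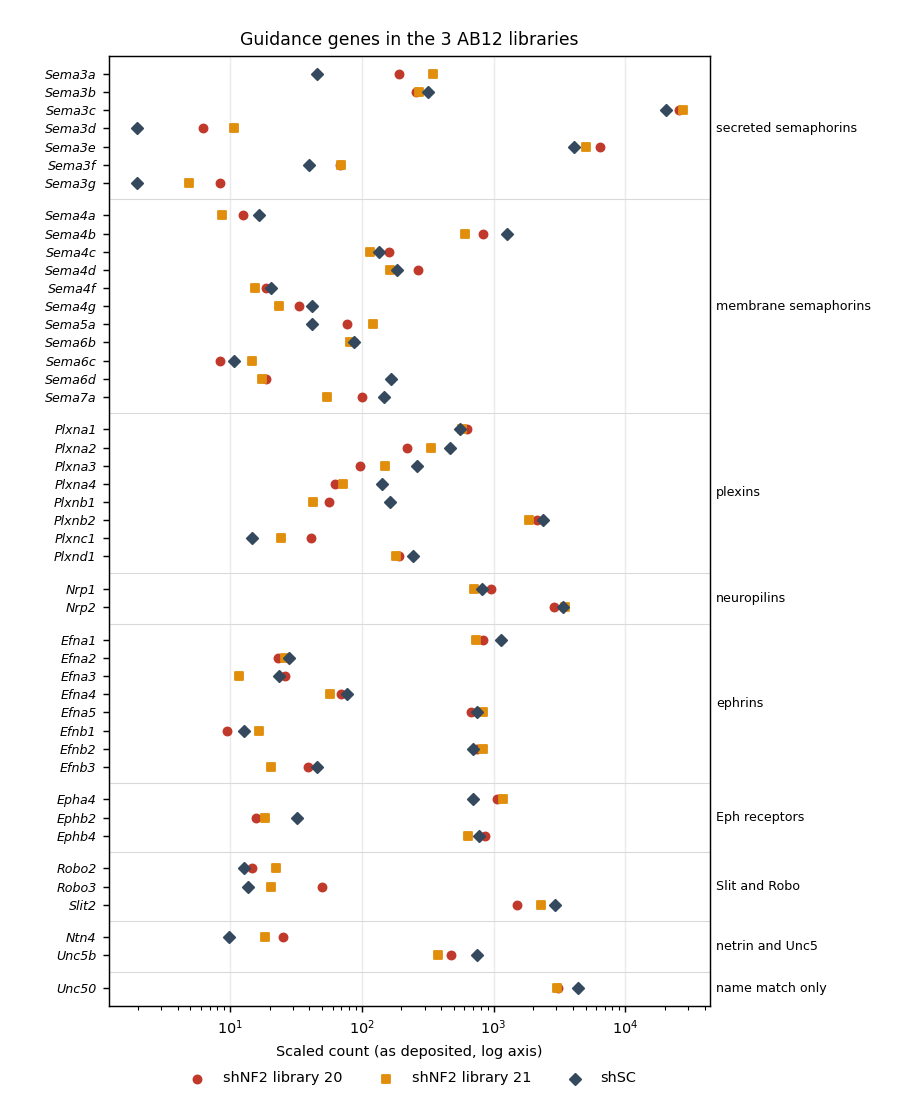
Scaled counts of all 45 guidance genes on a log axis, with 1 point for each library, grouped by role. Sema3a and Sema6d show wide distances between both shNF2 libraries and shSC, and Sema3c stands at 20357 to 27197 scaled counts in the 3 libraries.

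Both shNF2 libraries lay above shSC for 12 of the 43 tested members, where 36.1% of all genes tested did. Both lay below for 22 members, where 35.8% of all genes did. The libraries lay on opposite sides of shSC for 9 members, where 28.1% of all genes did. The fold changes of libraries 20 and 21 share the 1 shSC library, so a shared direction is not a replication. In both libraries 6 tested members were at least 1.5-fold higher, where 3.82% of all genes were, and 7 were at least 1.5-fold lower, where 3.98% were. The median gap between libraries 20 and 21 was 0.39 on the log2 scale for the tested members, against 0.23 for all genes tested. A mean of at least 50 scaled counts was reached by 30 of the 43 tested members and by 10866 of the 12813 genes tested. The part of this difference in level in the gaps and in the 1.5-fold counts was not tested.

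Sema3a encodes a secreted cue that repels axons through neuropilin-1 and A-type plexins. It had 190 scaled counts in library 20 and 350 in library 21, against 45.8 in shSC. Both shNF2 libraries were higher than shSC, and library 21 was also higher than library 20. Over shSC, library 20 had a log2 fold change of 2.03 and library 21 one of 2.91, with a joint value of 2.47 ± 0.39 (SE; limma adjusted p = 0.00915). By reads, the ratio to shSC was 4.16 in library 20, with an exact 95% counting interval of 3.004 to 5.86, and 7.65 in library 21, with an interval of 5.63 to 10.6. These intervals cover counting error only.

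The other secreted semaphorins mostly lay above shSC without passing. Counting Sema3a, 4 of the 5 tested genes were higher in both shNF2 libraries, where 36.1% of all genes tested were. The other 1 was lower in both, where 35.8% were. With the untested Sema3d and Sema3g, 6 of the 7 genes were higher in both. Sema3c, whose product binds both neuropilins, had 25782 and 27197 scaled counts in libraries 20 and 21, against 20357 in shSC (log2 fold change 0.38 ± 0.22, SE). Sema3e, whose product binds plexin D1 without a neuropilin, had 6414 and 5005 scaled counts, against 4079 in shSC (0.47 ± 0.22, SE). Sema3f, a neuropilin-2 ligand gene, had 68.0 and 69.0 scaled counts in libraries 20 and 21, against 39.9 in shSC. In these 3 genes both shNF2 libraries lay above shSC, but none passed, with limma adjusted p-values of 0.671, 0.548 and 0.627.

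Sema3d and Sema3g fell under the level needed for the test. Sema3d had 6 and 11 reads in libraries 20 and 21, against 2 reads in shSC, and Sema3g had 8 and 5 reads, against 2. With both shNF2 libraries pooled, the ratio to shSC was 4.40 for Sema3d, with an exact 95% counting interval of 1.04 to 39.2. For Sema3g it was 3.36, with an interval of 0.761 to 30.7. Both encode neuropilin ligands, and at this depth the size of either difference was not determined. Sema3b was the exception in direction, with 256 and 270 scaled counts in libraries 20 and 21, against 319 in shSC. Summed over the 7 secreted semaphorin genes, the level was 32726 and 32906 scaled counts in libraries 20 and 21, against 24844 in shSC, and most of this sum is Sema3c.

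Sema6d was the guidance gene with the lowest p. It encodes a transmembrane semaphorin that binds A-type plexins and can also signal through its own cytoplasmic part. It had 18.8 scaled counts in library 20 and 17.5 in library 21, against 166 in shSC. By reads these were 18, 18 and 170. Both shNF2 libraries were far below shSC and close to each other, 0.10 apart on the log2 scale. Library 20 had a log2 fold change of -3.07 and library 21 one of -3.17, with a joint value of -3.12 ± 0.46 (SE; limma adjusted p = 0.00697). The ratio of reads to shSC was 0.110 over both libraries, with an exact 95% counting interval of 0.0743 to 0.158.

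**Figure D2:**
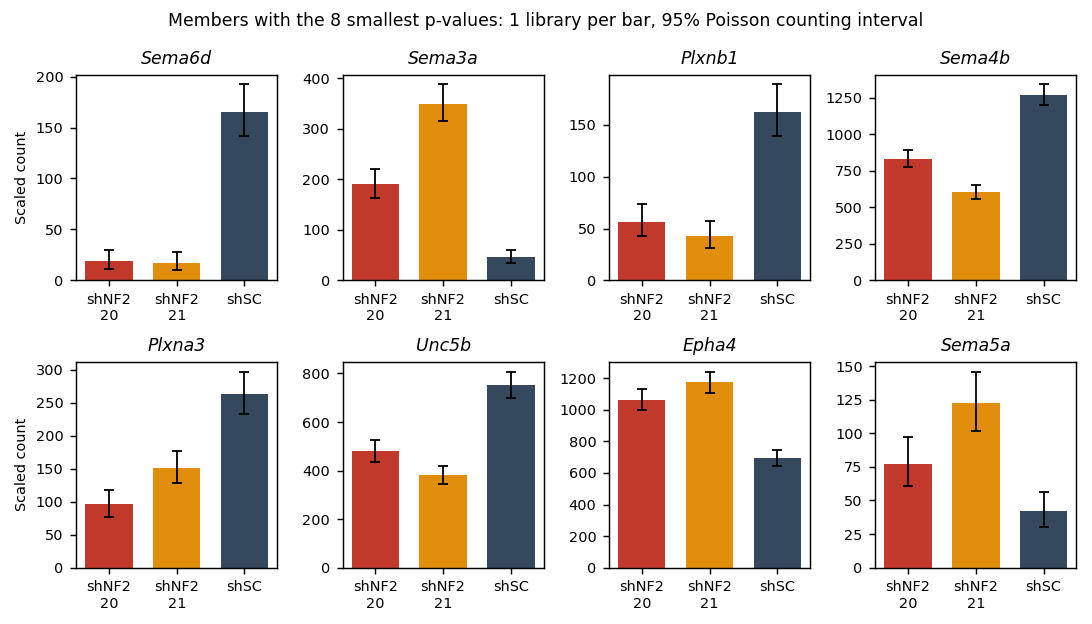
Scaled counts of the 8 guidance genes with the smallest limma p, 1 bar for each library with its exact 95% Poisson counting interval, which covers counting error only. In each panel both shNF2 bars lie on the same side of the shSC bar, and only Sema6d and Sema3a pass the test over all genes.

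Among the 11 membrane-bound semaphorins, which include Sema6d, 7 were lower in both shNF2 libraries, 1 was higher in both and 3 lay on opposite sides of shSC. Over all genes tested these shares were 35.8%, 36.1% and 28.1%. Sema4b, a transmembrane semaphorin gene, had 835 and 604 scaled counts in libraries 20 and 21, against 1273 in shSC (log2 fold change -0.84 ± 0.26, SE; limma adjusted p = 0.220). Sema7a, which encodes a lipid-anchored ligand of plexin C1 and integrins, had 100 and 54.4 scaled counts, against 147 in shSC. Both shNF2 libraries lay below shSC in each of these genes. Sema7a was nearly as far apart between the shNF2 libraries (0.87 on the log2 scale) as its joint fold change of -0.98. Sema4a, Sema4f, Sema4g and Sema6b were also lower in both libraries, with joint log2 fold changes between -0.61 and -0.07.

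Sema5a was the membrane-bound semaphorin gene that was higher in both shNF2 libraries. Its product carries thrombospondin-type repeats beside the semaphorin domain. It had 77.4 and 122 scaled counts in libraries 20 and 21, against 41.9 in shSC. Both shNF2 libraries lay above shSC, as in 36.1% of all genes tested. The log2 fold change of 1.20 ± 0.41 (SE) did not pass (limma adjusted p = 0.314).

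The genes whose libraries straddled shSC were Sema4c, Sema4d and Sema6c. Sema4c, a plexin B2 ligand gene, had 160 and 116 scaled counts in libraries 20 and 21, against 134 in shSC. Sema4d, a plexin B1 ligand gene, had 269 and 163, against 186 in shSC. In both, library 20 was higher and library 21 lower than shSC. Sema6c had the other order, with 8.37 and 14.6 scaled counts, against 10.7 in shSC, which is 8, 15 and 11 reads.

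Of the 8 plexin genes, 6 were lower in both shNF2 libraries, where 35.8% of all genes tested were. The other 2 were higher in both, where 36.1% were. Of the plexin genes, 0 passed limma, edgeR or DESeq2 over all genes tested. In limma, 0.414% of all genes tested passed as higher and 0.429% as lower. At an unadjusted p under 0.05, limma had Plxnb1, Plxna3, Plxna4 and Plxna2, all lower, where 4.91% of all genes tested were lower. Plxnb1, the receptor gene for Sema4d, had 56.5 and 42.8 scaled counts in libraries 20 and 21, against 163 in shSC. The log2 fold change was -1.71 ± 0.39 (SE; limma adjusted p = 0.0757), and it passed when genes with low values were kept in the fit (adjusted p = 0.0173). By reads, the ratio to shSC over both libraries was 0.304, with an exact 95% counting interval of 0.234 to 0.392.

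The A-type plexins are the signalling partners of neuropilins for secreted semaphorins. Plxna3 had 96.2 and 151 scaled counts in libraries 20 and 21, against 264 in shSC (log2 fold change -1.13 ± 0.35, SE; limma adjusted p = 0.243). Plxna4 had 62.8 and 71.9, against 142 in shSC (-1.07 ± 0.37, SE; limma adjusted p = 0.314). Plxna2 had 222 and 334, against 463 in shSC (-0.76 ± 0.31, SE; limma adjusted p = 0.433). In these 3 genes both shNF2 libraries were lower than shSC, as in 35.8% of all genes tested. Plxna1, also a receptor for Sema6d, had 625 and 573 scaled counts in libraries 20 and 21, against 555 in shSC, a log2 fold change of 0.11.

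The remaining plexins had smaller differences or were low. Plxnb2, the Sema4c receptor gene, had 2126 and 1858 scaled counts in libraries 20 and 21, against 2360 in shSC. Plxnd1, the Sema3e receptor gene, had 190 and 183, against 246 in shSC. Both were lower in both libraries, with joint log2 fold changes of -0.25 and -0.40, and the limma adjusted p-values were 0.777 and 0.740. Plxnc1, the Sema7a receptor gene, was higher in both, with 40.8 and 24.3 scaled counts, against 14.6 in shSC. Its ratio of reads was 2.79 in library 20, with an exact 95% counting interval of 1.51 to 5.45, and 1.66 in library 21, with an interval of 0.844 to 3.39, which includes no difference.

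Both neuropilin genes had libraries on opposite sides of shSC, as in 28.1% of all genes tested. Neuropilins also serve as co-receptors for VEGF. Nrp1 had 960 and 709 scaled counts in libraries 20 and 21, against 823 in shSC. Nrp2 had 2885 and 3517, against 3364 in shSC. The groups overlap in both genes, and the log2 fold changes were 0.00 ± 0.25 for Nrp1 and -0.08 ± 0.22 for Nrp2 (SE); a p that misses the threshold does not show that the levels were the same.

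**Figure D3:**
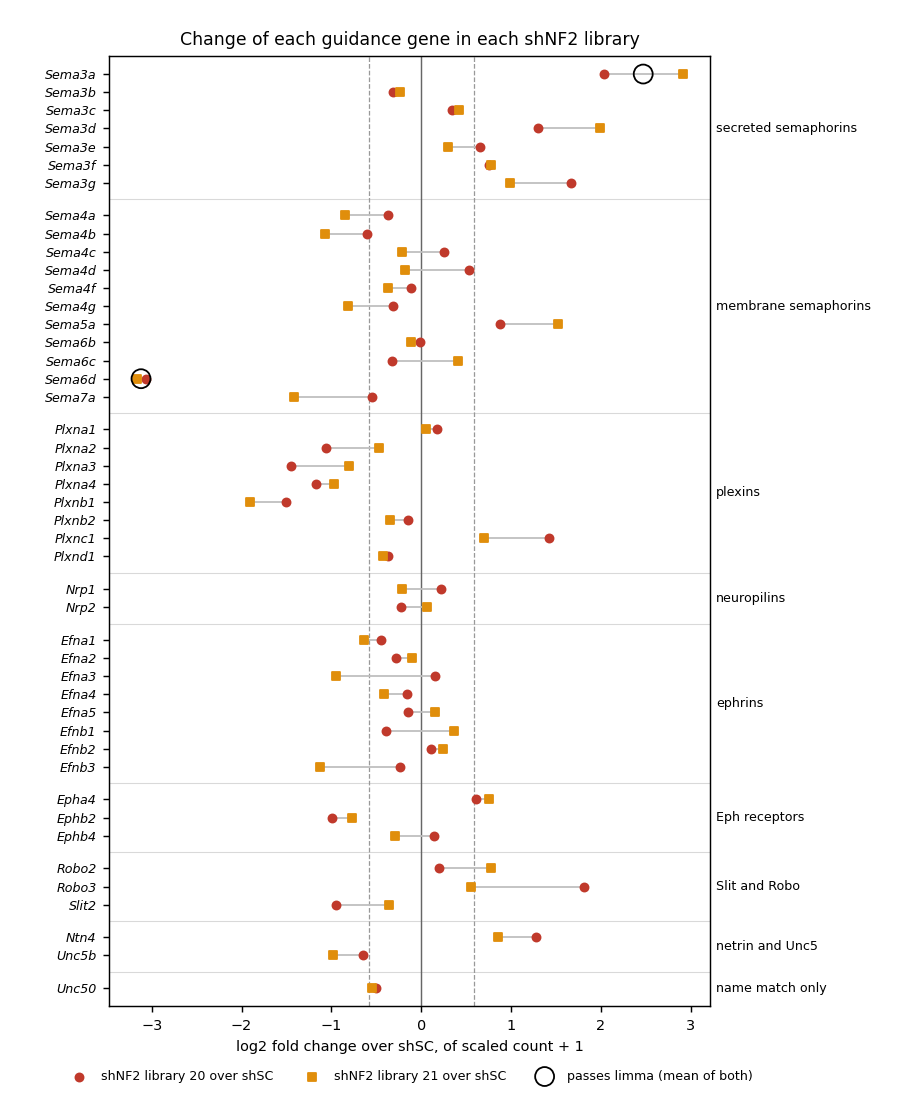
The log2 fold change over shSC of each guidance gene in library 20 (circles) and library 21 (squares), on the scale of scaled count + 1. Dashed lines mark 1.5-fold, and open rings mark the genes that passed limma, Sema3a at 2.47 and Sema6d at -3.12. The line between symbols is the gap between the shNF2 libraries.

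Among the 8 ephrin genes, 4 were lower in both shNF2 libraries, 1 was higher in both and 3 lay on opposite sides. Over all genes tested these shares were 35.8%, 36.1% and 28.1%. Of the ephrin genes, 0 passed limma, edgeR or DESeq2, where limma passed 0.414% of all genes tested as higher and 0.429% as lower. A-type ephrins are lipid-anchored and B-type ephrins span the membrane. Efna1 had 838 and 738 scaled counts in libraries 20 and 21, against 1148 in shSC, and was the 1 ephrin gene with an unadjusted limma p under 0.05 (0.0357; adjusted p = 0.479). Efna2, Efna4 and Efnb3 were lower in both libraries too, with joint log2 fold changes between -0.68 and -0.19. Efnb2, whose product binds Ephb4 in vessels, had 749 and 826 scaled counts, against 696 in shSC, a log2 fold change of 0.18.

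The ephrin genes with libraries on both sides of shSC were Efna3, Efna5 and Efnb1. Efna5 had 672 and 826 scaled counts in libraries 20 and 21, against 745 in shSC, and a joint log2 fold change of 0.00 ± 0.25 (SE). Efna3 had 25, 12 and 24 reads in library 20, library 21 and shSC, and Efnb1 had 9, 17 and 13 reads. In these low genes the shNF2 libraries were 1.10 and 0.75 apart on the log2 scale. With libraries on opposite sides of shSC, the gap is always larger than the joint fold change.

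Of the 3 Eph receptor genes, 1 was higher, 1 lower and 1 on both sides of shSC. Over all genes tested these shares were 36.1%, 35.8% and 28.1%. Epha4, whose product binds A-type and B-type ephrins, had 1062 and 1173 scaled counts in libraries 20 and 21, against 693 in shSC. Both shNF2 libraries lay above shSC, as in 36.1% of all genes tested. The log2 fold change of 0.69 ± 0.23 (SE) was larger than the gap of 0.14 between the shNF2 libraries. It did not pass (limma adjusted p = 0.292). Ephb2, a B-type receptor gene, had 15 and 19 reads in libraries 20 and 21, against 33 in shSC (-0.88 ± 0.54, SE). Ephb4, the receptor gene for Efnb2, had 861 and 639 scaled counts, against 781 in shSC, so the groups overlap.

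Slit2, the Slit gene among the members, lay below shSC in library 20 and in library 21. It had 1512 and 2277 scaled counts in these, against 2927 in shSC, and its log2 fold change came to -0.66 ± 0.25 (SE; limma adjusted p = 0.401). Library 20 had -0.95 and library 21 had -0.36. The Robo genes were low and lay above shSC in both libraries, as in 36.1% of all genes tested. Robo2, a Slit receptor gene, had 14 and 23 reads in libraries 20 and 21, against 13 in shSC. Robo3, a divergent Robo, had 48 and 21 reads, against 14 in shSC. The ratio for Robo3 was 3.68 in library 20, with an exact 95% counting interval of 1.997 to 7.23, and 1.497 in library 21, with an interval of 0.726 to 3.18. Its shNF2 libraries were 1.26 apart on the log2 scale, and 2 tested members, Robo3 and Efna3, differed by at least 2-fold between these libraries, where 3.83% of all genes did.

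Among the members chosen by name, the netrin axis was represented by 1 ligand gene and 1 receptor gene. Ntn4, which encodes a laminin-binding netrin of basement membranes, had 24 and 19 reads in libraries 20 and 21, against 10 in shSC, a ratio of 2.23 over both with an exact 95% counting interval of 1.10 to 4.97. Unc5b, a netrin-1 receptor gene, had 479 and 380 scaled counts, against 753 in shSC. Both Unc5b values were lower than shSC, by a log2 difference of -0.82 ± 0.26 (SE; limma adjusted p = 0.257). Unc50, the gene included only by its letters, had 3091 and 3007 scaled counts in libraries 20 and 21, against 4399 in shSC (-0.53 ± 0.21, SE; limma adjusted p = 0.414). Without Unc50, 12 of 42 tested members lay above shSC in both libraries and 21 below, where 36.1% and 35.8% of all genes tested did.

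The fold change was larger than the gap between libraries 20 and 21 for 28 of the 43 tested members, where 51.1% of all genes tested had such a fold change. Sema6d combined the largest change among the members with a small gap of 0.10. Sema3a had a gap of 0.87 and a change of 2.47. Plxnb1 followed, with a gap of 0.39 and a change of -1.71.

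**Figure D4:**
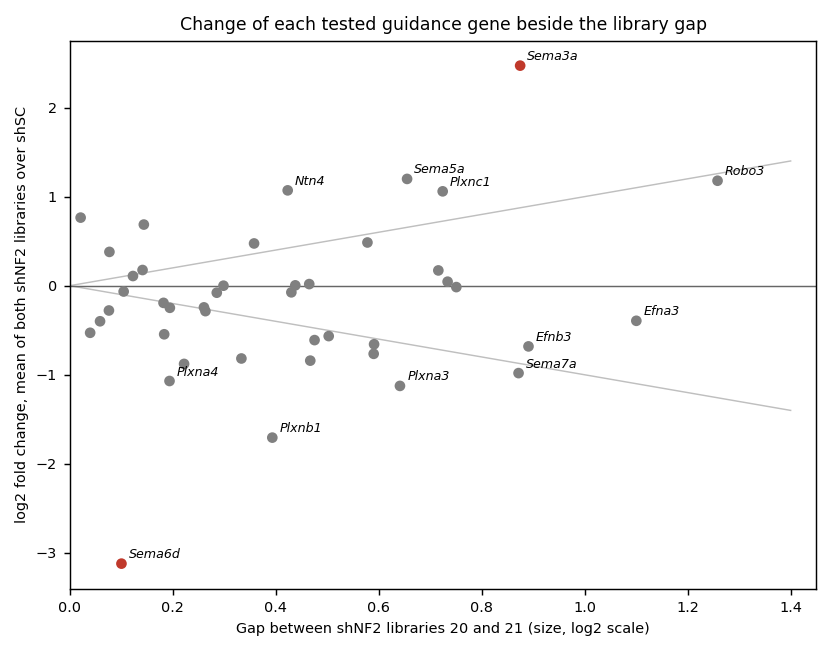
The joint log2 fold change of each tested guidance gene over shSC against the size of the gap between shNF2 libraries 20 and 21; points between the grey lines have a gap at least as large as the change. Sema3a and Sema6d, in red, passed limma, and Robo3 has the widest gap at 1.26.

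The ligand genes and the receptor genes set beside them here, by receptor family, did not show 1 common direction. Sema3a was higher beside Plxna2, Plxna3 and Plxna4 values that were lower and Nrp1 values on both sides of shSC. Sema6d was lower beside the same lower values of Plxna2, Plxna3 and Plxna4, and beside Plxna1 values that were 1.13-fold and 1.03-fold those of shSC. Sema4d lay on both sides of shSC beside lower Plxnb1 values, Sema7a was lower beside higher Plxnc1 values, and Sema3e was higher beside lower Plxnd1 values. These are values side by side, and no pair was tested.

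Other genes of guidance signalling were read from lists chosen by role. Of 8 further receptors and ligands tested, 0 passed limma, edgeR or DESeq2. Over all genes tested, limma passed 0.414% as higher and 0.429% as lower. At an unadjusted limma p under 0.05, 2 were higher and 1 lower, where 4.36% and 4.91% of all genes tested were. Nrcam, an adhesion partner of neuropilins, had 41.8 and 70.0 scaled counts in libraries 20 and 21, against 20.4 in shSC. Flrt3, an Unc5 ligand gene, had 702 and 1059, against 1361 in shSC. Met, a receptor kinase gene whose product associates with B-type plexins, had 6452 and 6087, against 4470 in shSC. The log2 fold changes of Nrcam, Flrt3 and Met were 1.36, -0.66 and 0.49.

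Of 48 tested effectors that act inside the cell, 0 passed limma, edgeR or DESeq2, and their median log2 fold change was 0.09. The limma shares over all genes tested were 0.414% higher and 0.429% lower, so 0 of 48 is near them. At an unadjusted limma p under 0.05, 6 were higher and 2 lower, where 4.36% and 4.91% of all genes tested were. Chn1, which encodes a Rac-directed GTPase activator downstream of Epha4, had 160 and 205 scaled counts in libraries 20 and 21, against 76.9 in shSC. Pak3, a Rac-activated kinase gene, had 478 and 530, against 270 in shSC. Ablim1, an actin-binding protein gene, had 610 and 821, against 388 in shSC. In these 3 genes, named for the smallest p in the list, the shNF2 libraries were above shSC, with log2 fold changes of 1.23, 0.90 and 0.86. Of 11 tested heparan sulfate enzyme and proteoglycan genes, whose products bind Slits and other cues, 0 passed limma, edgeR or DESeq2. The limma shares to set beside this are again 0.414% and 0.429%. At an unadjusted limma p under 0.05, 0 were higher and 2 lower, Sdc1 (-0.62) and Gpc1 (-0.62), where 4.36% and 4.91% of all genes tested were. Hs2st1, a heparan sulfate sulfotransferase gene, followed by p with a log2 fold change of 0.37.

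Many guidance genes are used by neurons, and markers of neural and glial cells were read beside them. The 4 of 9 markers with rows (Tubb3, Snap25, Syp and Gap43) summed to 171 and 275 scaled counts in libraries 20 and 21, against 476 in shSC. Snap25, a synaptic fusion protein gene, fell, with 74.3 and 68.0 scaled counts, against 234 in shSC (log2 fold change -1.70 ± 0.35, SE; limma adjusted p = 0.0409). This call was lost with TMM (adjusted p = 0.0607), DESeq2 (0.0923), limma without a trend (0.187) and quantile normalization (0.523). Tubb3 had 60.7 and 97.2, against 195 in shSC, and Gap43 had 27.2 and 99.1, against 38.0 in shSC. Whether these markers have a part in the values of Sema6d or the plexins was not tested.

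Library 21 differed from shSC along GC content. Across 10319 tested genes with a human stand-in transcript, Spearman's rho of GC with the change over shSC (log2) was -0.37 for library 21 and -0.04 for library 20. Across the 43 members it was -0.19 for library 21 and -0.14 for library 20. Genes are not independent replicates and share these 3 libraries. The members had a median stand-in GC of 57.8%, against 49.8% for all tested genes with a stand-in. The shares of all genes given beside counts of members are therefore not matched for GC. After a correction for GC and transcript length, Sema3a had a log2 fold change of 2.43 (limma adjusted p = 0.0162) and Sema6d had -3.24 (limma adjusted p = 0.0123). Among genes that did not pass, the correction made some changes smaller, with Plxnb2 at -0.064, Sema3c at 0.25 and Sema3e at 0.34. It made others larger, with Sema3f at 0.89 and Slit2 at -0.78.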

How the data were processed

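The authors deposited 1 table of gene signal for 3 libraries, which its name calls scaled counts. The tools in the submitters' processing notes, given without roles, are DESeq 1.22.1, HTSeq 0.5.3, STAR 2.5.0a and cutadapt 1.6, and the build is mm10. The gene identifiers are mouse although the organism label is human. From the values, a deposited column is whole reads divided by 1 factor (1.03 for shSC, 0.956 for library 20, 1.03 for library 21): 100% of values came out whole within 0.001 reads. edgeR on these reads called 29 genes higher and 52 lower, and DESeq2 called 41 higher and 57 lower. The smallest total was 15 reads; the filter behind it, the annotation and the strand setting of the counting are not given in the sources used here. The 4 rows that name no gene held 48.7%, 47.7% and 48.6% of reads in library 20, library 21 and shSC and were left out.

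The values log2(scaled count + 1) were fitted with limma 3.58.1 (R 4.3.3) and a trended variance, on a scale that understates the change of low genes. It covered 12813 genes with a mean of at least 10 and called 53 higher and 55 lower, with 1 residual and 11.9 prior degrees of freedom. The single shSC library was taken to vary like the shNF2 libraries, and an exact test could not pass at this size. edgeR 4.0.16 and DESeq2 1.42.0 were alternatives, and the fit was tested on simulated data. GC and length were medians of human GENCODE transcripts, present for 80.5% of tested genes and all 43 tested members, fitted with mgcv 1.9.3. Counting intervals were exact (conditional binomial for ratios, Poisson for levels).

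Members with a mean of at least 10 were named with values if they passed, moved at least 1.5-fold the same way in both libraries, lay on opposite sides of shSC, differed by at least 1 on the log2 scale between shNF2 libraries or had a mean of at least 1000; other members were named for their role. From lists of related genes, those passing, or the 3 with the smallest p, were named; markers of cell types are given as a check. The members and lists were chosen with earlier results of these data known. No sequences or coordinates of mouse genes were used here. One gene of the neural and glial marker list is not reported here.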

Additional observations from a re-analysis of the deposited data

How the results depend on the processing

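The calls on guidance genes were 1 higher and 1 lower, Sema3a and Sema6d, with pseudocounts of 0.5 and 10, a mean of at least 50, TMM scaling, robust moderation, edgeR, DESeq2 and, chosen after seeing the data, correction for length and GC. Without the filter on low values 2 were lower, Plxnb1 being added. Under quantile normalization 0 were higher and 0 lower (4 and 8 at an unadjusted p under 0.05), and the counts were likewise 0 and 0 without a variance trend (6 and 7); under either setting limma called 0 of all 12813 genes tested (882 and 1036 at an unadjusted p under 0.05). The log2 fold change of Sema3a was 2.49 under quantile normalization (adjusted p = 0.523) and 2.47 without a trend (0.196). That of Sema6d was -3.10 (0.496) and -3.12 (0.0771). The cause was not tested. Over the 28 genes named by rule, 301 alternative fits gave 284 results with the same direction and call. Only Sema3a and Sema6d passed in the main fit, so for the other genes the same call means again not passing. The 4 results that lost a call were those of Sema3a and Sema6d under quantile normalization and without a variance trend. Sign turned in 12 results, all in genes with libraries on opposite sides of shSC. Nrp1 had -0.0051 with TMM, -0.039 with quantile normalization and -0.099 after length and GC correction. Efna5 had -0.0088, -0.027 and -0.12 in these and -0.0020 with edgeR. Efnb1 had 0.0022 with pseudocount 10, 0.032 with edgeR, 0.036 with DESeq2 and 0.046 after length and GC correction, and Ephb4 had 0.016 after that correction. With 1 shNF2 library left out no test was possible, since 1 library against 1 leaves no residual degrees of freedom; Sema3a then had 2.03 to 2.91 and Sema6d -3.17 to -3.07. No paired analysis was possible because the groups share no replicate number. Depth limits Sema3d and Sema3g most, with 2 reads each in shSC.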
